A study of Homo sapiens with 8 samples.

Results

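The genes described here are 10 genes of the ATF4 arm of the integrated stress response. They were taken by name from a fixed list (ATF4, ATF3, DDIT3, TRIB3, CHAC1, SESN2, DDIT4, ASNS, PSAT1 and PHGDH). The rule used no measured value, but earlier results of these data were known when the list was chosen. All 10 were found among the 27426 genes of the deposited all-read table, and 8 of them among the 6993 genes of the deposited table of converted reads, where ATF3 and CHAC1 had no row. Their RNA was measured by SLAM-seq in NALM6, an established human leukaemia line of the precursor B-cell type. In this assay cells take up 4-thiouridine, and RNA made while it is present is recognised by T-to-C conversions after a thiol modification. The cells carried a doxycycline-inducible gene for HMGN1, a chromatin protein that binds nucleosomes, either wild type or in the S20,24E form, which is deficient in nucleosome binding. The vehicle group (3 libraries) was the wild-type line without doxycycline, the induced wild-type group (3 libraries) was that line with 100 ng/ml doxycycline, and the induced mutant group (2 libraries) was the mutant line with the same dose. Exposure to doxycycline or vehicle lasted 6 h, all 8 cultures had 100 µM 4-thiouridine for the last 5 h, and 4 µg of RNA entered each thiol modification. The libraries are labelled biological replicates A to C, and separate cultures are not stated, so the errors below measure the spread between these libraries only. In the comparison of induced wild type with vehicle, doxycycline and HMGN1 cannot be told apart. In the comparison of induced mutant with vehicle, the line and doxycycline differ together, and mutant cells with vehicle were not analysed here.

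The integrated stress response starts when one of 4 kinases phosphorylates the translation factor eIF2 in response to amino acid shortage, unfolded proteins, haem shortage or double-stranded RNA. General translation then falls while the ATF4 mRNA is translated better, so that much of the control of ATF4 lies in translation, which an RNA assay does not read. The ATF4 protein, usually paired with a C/EBP-family protein, raises transcription of genes for amino acid synthesis and transport, and in long stress of genes tied to cell death. Leukaemic lymphoblasts are known for low asparagine synthetase, the reason asparaginase is used to treat them.

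The libraries held 7.99 to 17.7 M reads behind their CPM values (reads per M reads), of which 3.43 to 7.85 M lay in the gene rows used. HMGN1 itself stood at 191, 153 and 145 CPM with vehicle, at 252, 217 and 317 CPM in induced wild type and at 223 and 200 CPM in induced mutant. Every induced library was thus above every vehicle library for HMGN1, whose row does not separate the native from the introduced copy. Among all genes, 4.04% did not overlap between induced wild type and vehicle and 16.0% between induced mutant and vehicle. In all reads limma, the main test, called HMGN1 in neither, with log2 differences of 0.67 (interval 0.29 to 1.05, adjusted p 0.99) and 0.38 (interval -0.05 to 0.81). A gene not called below may thus still differ by such an amount. In converted reads each induced group overlapped with vehicle for HMGN1. Its values in induced mutant (4.15 and 2.62 FPKM) lay below those in induced wild type (7.75, 5.39 and 4.94 FPKM). Between these groups 17.0% of all genes did not overlap. All 10 precursor B-cell markers checked reached a mean of 1 CPM, with a summed level of 1528 to 1809 CPM by library, and none of the T-cell, erythroid or fibroblast markers did. Of 5 myeloid markers LYZ and CSF1R did, and the myeloid list summed to 342 to 514 CPM. The library vehicle A had the lowest conversion rate averaged over gene reads, 2.64%, against 3.39% to 5.20% in the other libraries, and for the main differences from vehicle the values without it are given as well.

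Among the regulators, ATF4, the transcription factor at the centre of the pathway, was abundant and even across libraries. It stood at 194, 217 and 232 CPM in the 3 vehicle libraries, at 234, 215 and 223 CPM in induced wild type and at 226 and 244 CPM in induced mutant. The groups overlapped, and the highest library was only 1.26 times the lowest. DDIT3 encodes CHOP, a C/EBP-family protein linked to cell death in long stress. It was as even as ATF4 at a lower level, with 20.6, 22.1 and 22.7 CPM in vehicle, 25.8, 23.0 and 23.3 CPM in induced wild type, and 22.0 and 26.6 CPM in induced mutant. All induced wild-type values of DDIT3 lay above all vehicle values, by a narrow margin, while those of induced mutant fell on both sides of the vehicle maximum. ATF3, a stress-induced bZIP factor downstream of ATF4, was low and uneven. It had 3.60, 5.99 and 7.10 CPM in vehicle, 6.81, 4.13 and 8.33 CPM in induced wild type and 6.75 and 5.86 CPM in induced mutant, which are 32 to 126 reads a library.

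TRIB3 is a pseudokinase that is induced by ATF4 and CHOP and restrains them. Its level was 26.2, 41.5 and 47.0 CPM in vehicle, 48.9, 37.3 and 47.3 CPM in induced wild type and 37.8 and 33.9 CPM in induced mutant, so that vehicle A was low and the groups overlapped. SESN2, a leucine sensor that restrains the growth kinase complex mTORC1, spread most of the 10 genes, 2.64 times between its lowest and its highest library. It stood at 10.1, 16.8 and 22.3 CPM in vehicle, at 21.9, 16.0 and 25.6 CPM in induced wild type and at 26.7 and 18.8 CPM in induced mutant. DDIT4, also called REDD1 and another restrainer of mTORC1, moved with SESN2 across libraries, with 18.4, 28.0 and 32.1 CPM in vehicle, 33.0, 26.5 and 34.2 CPM in induced wild type and 39.5 and 32.0 CPM in induced mutant. CHAC1, an enzyme that degrades glutathione, was the least abundant by CPM, at 2.02, 2.08 and 3.49 CPM in vehicle, 3.27, 3.01 and 3.55 CPM in induced wild type and 2.89 and 3.10 CPM in induced mutant. It rests on 18 to 62 reads a library.

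The 3 enzymes of amino acid synthesis varied less than TRIB3, SESN2, DDIT4, ATF3 and CHAC1. ASNS, asparagine synthetase, stood at 38.1, 35.9 and 40.8 CPM in vehicle, at 39.1, 29.7 and 33.8 CPM in induced wild type and at 33.7 and 38.1 CPM in induced mutant. PHGDH, the first enzyme of serine synthesis, stood at 147, 156 and 138 CPM in vehicle, at 145, 147 and 116 CPM in induced wild type and at 123 and 148 CPM in induced mutant. PSAT1, the next enzyme of that route, stood at 31.3, 41.1 and 37.0 CPM in vehicle, at 35.1, 30.7 and 40.6 CPM in induced wild type and at 32.1 and 30.1 CPM in induced mutant. For all 3 enzymes the groups overlapped, and the ratio of highest to lowest library was between 1.34 and 1.37. Per kilobase of exon the order of the mean levels over 8 libraries was ATF4 (110 ± 7.48 CPM per kb, SD, n = 8), PHGDH (66.8 ± 6.51), PSAT1 (24.6 ± 3.13), DDIT3 (21.8 ± 1.88), DDIT4 (17.4 ± 3.58), TRIB3 (16.0 ± 3.12), ASNS (15.3 ± 1.54), SESN2 (5.73 ± 1.59) and ATF3 (3.17 ± 0.82). The gap between PSAT1 and DDIT3 was smaller than the larger of their 2 SDs, and so were the gaps among DDIT4, TRIB3 and ASNS. The exon lengths are those of the transcripts in GENCODE 29, CHAC1 had no matching length, and the region that the submitters counted is not given in the sources used here.

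**Figure D1:**
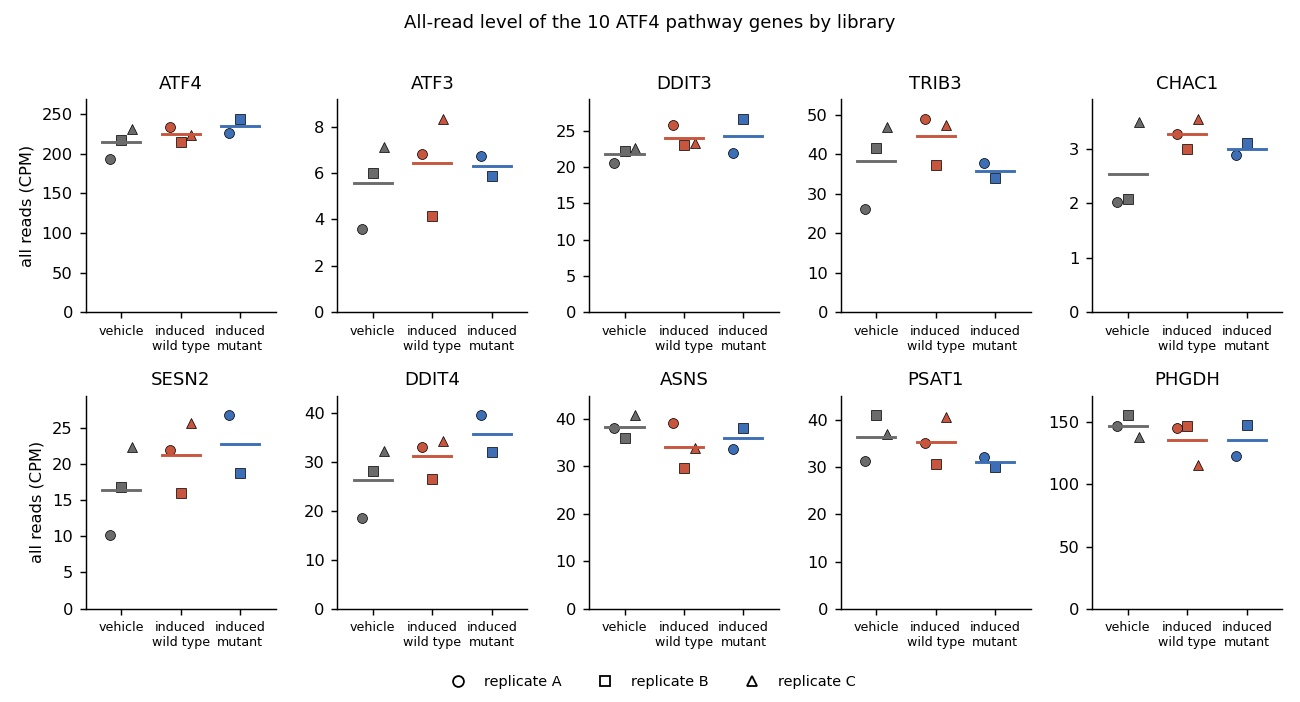
All-read level in CPM (vertical axis, from 0) of each of the 10 genes by group, with 1 point per library, its shape giving the replicate letter, and a line at the group mean. The vehicle A point is the lowest of all 8 libraries for ATF4, ATF3, DDIT3, TRIB3, CHAC1, SESN2 and DDIT4, and for none of ASNS, PSAT1 and PHGDH.

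The conversion rate, which is higher where more of an RNA was made during labelling, separated the 10 genes by role. The 7 genes for regulators, feedback and effectors had high rates, with means over the 8 libraries of 11.2% for CHAC1, 11.1% for SESN2, 11.0% for DDIT3, 9.66% for DDIT4, 9.49% for TRIB3, 9.18% for ATF4 and 8.32% for ATF3. The 3 synthesis enzymes had low rates, 5.04% for PSAT1, 3.38% for PHGDH and 1.79% for ASNS. Among 11550 genes with a mean of at least 20 reads, CHAC1, SESN2 and DDIT3 lay at the 98.9th, 98.8th and 98.7th percentile, DDIT4, TRIB3 and ATF4 at the 93.9th, 92.9th and 90.6th, and ATF3 at the 81.9th. PSAT1, PHGDH and ASNS lay at the 33.3rd, 18.2nd and 8.50th percentile. The rate depends on how long the label was present and is not itself a share of reads: of 29863 values from exactly 1 read, 41.9% lay strictly between 0% and 100%.

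In each of the 8 libraries the lowest of the 7 rates was above the highest of the 3 enzyme rates. In vehicle A the lowest of the 7 was ATF3 at 6.65% and the highest enzyme was PSAT1 at 4.25%, around a median over all genes of 5.00%. The margin was narrowest in induced wild type B, where ATF3 had 6.52% and PSAT1 5.21% around a median of 5.42%. All 56 pairings of these 7 genes with a library were above the library's median rate, and all 3 enzymes were below it in every library. Over all 11550 genes, 28.7% were above the median in all 8 libraries and 33.2% were below it in all 8. The contrast between enzymes and the other members was described after it was seen and has no test.

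ATF4 had rates of 7.89%, 8.90% and 10.2% in vehicle, 10.6%, 8.28% and 10.3% in induced wild type and 9.20% and 8.10% in induced mutant. DDIT3 had 9.41%, 11.7% and 12.7% in vehicle, 11.4%, 8.52% and 11.9% in induced wild type and 12.4% and 10.3% in induced mutant. ASNS, at the other end, had 1.32%, 1.82% and 2.05% in vehicle, 2.45%, 1.16% and 2.09% in induced wild type and 2.14% and 1.27% in induced mutant. The rates also varied with the library: the median over all genes ran from 5.00% in vehicle A to 7.37% in induced wild type C, and for this reason group differences in rate were taken after setting each library's median to 0 on the log2 scale.

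**Figure D2:**
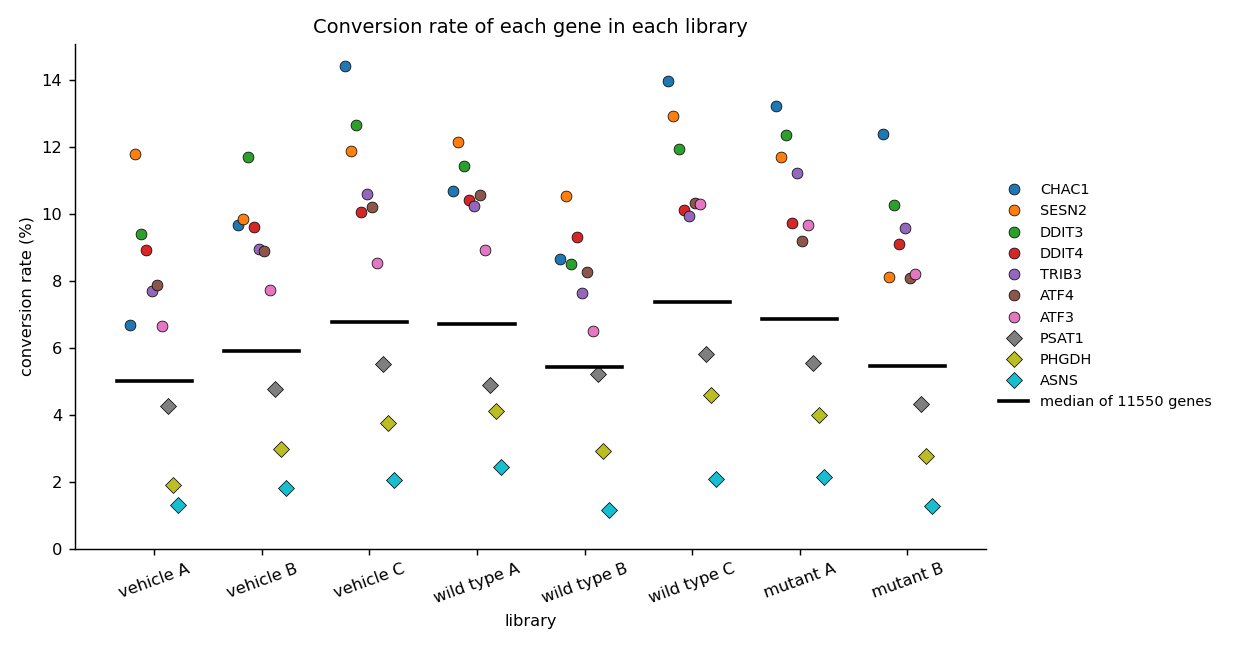
Conversion rate in percent (vertical axis, from 0) of the 10 genes in each of the 8 libraries (horizontal axis), with circles for the 7 regulators, feedback gene and effectors, diamonds for the 3 enzymes and a black bar at the median of 11550 genes. In every library all circles lie above the bar and all diamonds below it, from 1.16% for ASNS in induced wild type B to 14.4% for CHAC1 in vehicle C.

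The first comparison set induced wild type against vehicle, where doxycycline and HMGN1 differ together. In all reads none of the 10 genes passed limma at an adjusted p of 0.05 (adjusted p 0.992 to 0.994, none with an unadjusted p under 0.05), and 0% of the 12458 genes tested passed (118 had an unadjusted p under 0.05). edgeR and DESeq2 on the recovered reads called none of the 10 either, again with none under an unadjusted 0.05, and 2 genes of all tested. The log2 differences ran from -0.17 for ASNS to 0.39 for SESN2, with 7 above 0 and 3, the enzymes, below it. Of all 12458 genes tested, 8421 were above 0. The median of the 10 genes, 0.15, stood beside 0.09 over all genes tested. The 95% interval was -0.21 to 0.35 for ATF4, -0.25 to 1.03 for SESN2, -0.51 to 0.18 for ASNS and -0.44 to 0.20 for PHGDH. A rise of ATF4 RNA above 0.35 on the log2 scale thus lay outside its interval, while for SESN2 a change of 1 log2 unit did not.

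DDIT3 was the only one of the 10 genes whose all-read groups did not overlap in this comparison, with means of 21.8 ± 1.08 CPM (SD, n = 3) in vehicle and 24.0 ± 1.53 CPM (SD, n = 3) in induced wild type. Its log2 difference was 0.13 with an interval of -0.21 to 0.48, and its exact two-sided permutation p was 0.1, the smallest that 3 against 3 libraries can give. Among all genes 4.04% did not overlap in this comparison, and 1 of 10 is not read as a result about these genes. Of the 7 positive differences, 5 lost most of their size or changed sign when vehicle A was left out. Without that library SESN2 went from 0.39 to 0.10, DDIT4 from 0.27 to 0.05, TRIB3 from 0.25 to 0.00, ATF3 from 0.17 to -0.06 and ATF4 from 0.07 to -0.00. CHAC1 went from 0.30 to 0.20 and DDIT3 from 0.13 to 0.10. The median over the 10 genes was then 0.00 beside -0.04 over all genes.

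In conversion rate none of the 10 genes passed limma in induced wild type against vehicle (adjusted p 0.952 to 0.995), and 0% of 11550 genes did, with 518 of them under an unadjusted p of 0.05. DDIT3 alone of the 10 genes was under it, with a log2 difference of -0.22 and an interval of -0.42 to -0.03 (limma adjusted p 0.95). Its rates overlapped between the groups, as did those of the other 9 genes, against a background of 6.03% of genes that did not overlap. The enzyme PHGDH had the highest difference, 0.31 (interval -0.08 to 0.70), and fell to 0.16 without vehicle A, where its rate was 1.89% against 2.97% and 3.77% in the other vehicle libraries.

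The second comparison set the induced mutant against vehicle, and it shares its vehicle libraries with the first. In all reads none of the 10 genes passed limma (adjusted p 1.00, none with an unadjusted p under 0.05), while 0.0321% of all genes did. edgeR and DESeq2 also called none of them, but each gave an unadjusted p under 0.05 to SESN2 and DDIT4, with log2 differences of 0.53 and 0.51 in edgeR (adjusted p 0.68 and 0.47). Of all 13387 genes, 838 had such a p in edgeR (6.26%) and 673 in DESeq2 (5.03%), and 5 and 72 were called. In limma the interval of SESN2 was -0.22 to 1.21 around 0.49, and that of DDIT4 -0.08 to 1.00 around 0.46. The mutant libraries had 39.5 and 32.0 CPM of DDIT4 and the second of these lay just below vehicle C at 32.1 CPM. None of the 10 genes had groups without overlap here, against 16.0% of all genes. Without vehicle A the differences of SESN2 and DDIT4 were 0.20 and 0.24.

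ATF4 differed by 0.14 (interval -0.18 to 0.45) between induced mutant and vehicle and by 0.07 without vehicle A, and the enzymes by -0.09 for ASNS, -0.21 for PSAT1 and -0.12 for PHGDH. Without vehicle A, ATF3 went from 0.19 to -0.05, TRIB3 from -0.05 to -0.30, CHAC1 from 0.20 to 0.10 and PSAT1 from -0.21 to -0.32. The median over the 10 genes was 0.14 beside -0.04 over all genes, and it was 0.01 beside -0.15 without vehicle A. In conversion rate none of the 10 genes passed limma or had an unadjusted p under 0.05 (adjusted p 0.771 to 0.976), and 0.00866% of all genes passed. The differences ran from -0.26 for SESN2 (interval -0.63 to 0.12) to 0.32 for CHAC1 (interval -0.13 to 0.77). Without vehicle A these differences were -0.10 and 0.16, and PHGDH went from 0.19 to 0.04. No gene of the 10 had groups without overlap, against 11.5% of all genes.

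The third comparison set the induced mutant against induced wild type, both with doxycycline, so that the lines differ and the drug does not. In all reads none of the 10 genes passed limma (adjusted p 1.00), edgeR or DESeq2, none had an unadjusted p under 0.05 in any of the 3 tools, and 0.0321% of all genes passed limma. TRIB3 had the lowest difference, -0.30 (interval -0.84 to 0.24), from means of 44.5 ± 6.29 CPM (SD, n = 3) in induced wild type and 35.8 ± 2.78 CPM (SD, n = 2) in induced mutant. ATF4 differed by 0.07 (interval -0.25 to 0.38) and PHGDH by -0.00 (interval -0.36 to 0.36). No gene of the 10 had groups without overlap, against 15.0% of all genes. The median over the 10 genes was 0.01 beside -0.12 over all genes.

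In conversion rate TRIB3 had the only unadjusted p under 0.05 of the 10 genes in the third comparison, with a difference of 0.24 (interval 0.02 to 0.47, limma adjusted p 0.99). Its rates were 10.3%, 7.64% and 9.95% in induced wild type and 11.2% and 9.59% in induced mutant, and the groups overlapped. None of the 10 passed, 0.00866% of all genes did, and none of the 10 had groups without overlap, against 11.8% of all genes. Setting each library's all-read median to 0 moved the all-gene median of the first comparison from 0.09 to -0.04 and of the third from -0.12 to 0.02. Under that scaling 5, 6 and 8 of the 10 genes were above 0 in the 3 comparisons, in place of 7, 6 and 6. Before it, 8421, 5296 and 3319 of all 12458 genes were above 0.

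**Figure D3:**
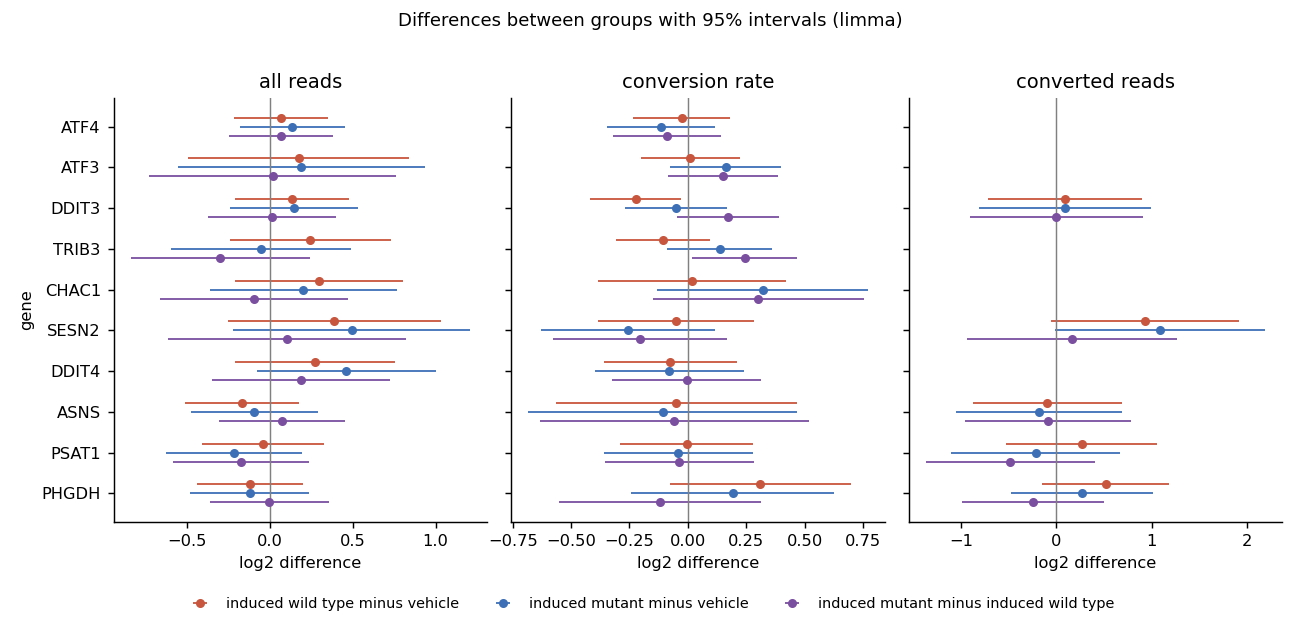
Log2 difference (horizontal axis) of each gene (vertical axis) in the 3 comparisons, given by colour, for all reads, conversion rate and converted reads, with dots for the estimate and bars for the 95% interval from limma. Of 75 bars, 73 cross 0, and the 2 that do not, DDIT3 and TRIB3 in conversion rate, have adjusted p-values of 0.95 and 0.99.

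The table of converted reads gives FPKM, a read level per length and depth as its header calls it, and it ordered the 10 genes differently from the other table. ATF4 was listed there at 0, 0.56 and 0.50 FPKM in vehicle, 0.18, 1.01 and 0.78 FPKM in induced wild type and 1.47 and 2.38 FPKM in induced mutant. Both mutant values lay above all 6 others, a pattern noticed after the values were seen. Among the 5737 genes with a mean of at least 1 FPKM, 28.2% had mutant and vehicle groups without overlap and 17.0% had mutant and induced wild-type groups without overlap, in either direction. The share with the mutant above both other groups was not counted, and ATF4 is not among these genes. Its mean of 0.86 FPKM was under the minimum of 1 set for a test, which DDIT4 (mean 0.54 FPKM) and TRIB3 (mean 0.70 FPKM) also missed. With no minimum, over 6993 genes, the log2 difference of ATF4 was 1.12 (interval 0.39 to 1.85, limma unadjusted p 0.0085, adjusted p 0.38) for induced mutant against vehicle. It was 0.84 (interval 0.11 to 1.57, limma unadjusted p 0.030, adjusted p 1.00) for induced mutant against induced wild type and 0.28 (interval -0.37 to 0.93) for induced wild type against vehicle. None of these passed. Of all 6993 genes, 705 (10.1%) and 265 (3.79%) had an unadjusted p under 0.05 in the first 2 of these comparisons. PHGDH was the highest of the 8 genes, with 4.18, 8.25 and 8.58 FPKM in vehicle, 10.9, 8.28 and 11.3 FPKM in induced wild type and 10.1 and 6.82 FPKM in induced mutant.

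To set both tables side by side, CPM times conversion rate was ranked among the 6245 genes in both. This product is not divided by transcript length, while FPKM is. The rate is also not a share of reads, so the product is not a level of converted reads. ATF4 had a product at the 99.5th percentile and converted FPKM at the 14.7th. TRIB3 went from the 88.4th to the 11.8th, DDIT4 from the 82.0th to the 9.14th and SESN2 from the 73.2nd to the 22.5th percentile. PSAT1 (64.3rd and 50.3rd) and PHGDH (91.5th and 85.9th) were closer in both, and the other row of PSAT1 lay at the 43.1st. For DDIT3 and ASNS the converted rank depended on the transcript, and the row of highest FPKM was not the transcript used for all reads. DDIT3 went from the 77.7th to the 52.6th percentile by its highest row and to the 28.6th by the transcript used for all reads. ASNS went from the 18.5th to the 45.0th percentile by its highest row and to the 21.6th by the transcript used for all reads. The transcripts of ASNS had the same CPM in the all-read table, and so did those of DDIT3. ATF4 spans 2120 bases and DDIT4 2117 bases from first to last exon, and PHGDH spans 32512 bases. Across genes the rank correlation of the 2 measures was 0.39, and the span correlated with the ratio of converted FPKM to product at a Spearman rho of 0.46, against 0.10 for exon length. Genes are not independent replicates, and these values are descriptions. In the 1562 genes with the shortest spans (up to 11167 bases) the median converted FPKM was 1.96 and in the 1561 with the longest (from 65262 bases) it was 3.97, while the median product was 1.71 and 0.95. Which region of a gene the converted table counts is not given in the sources used here, and its part in these ranks was not tested.

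**Figure D4:**
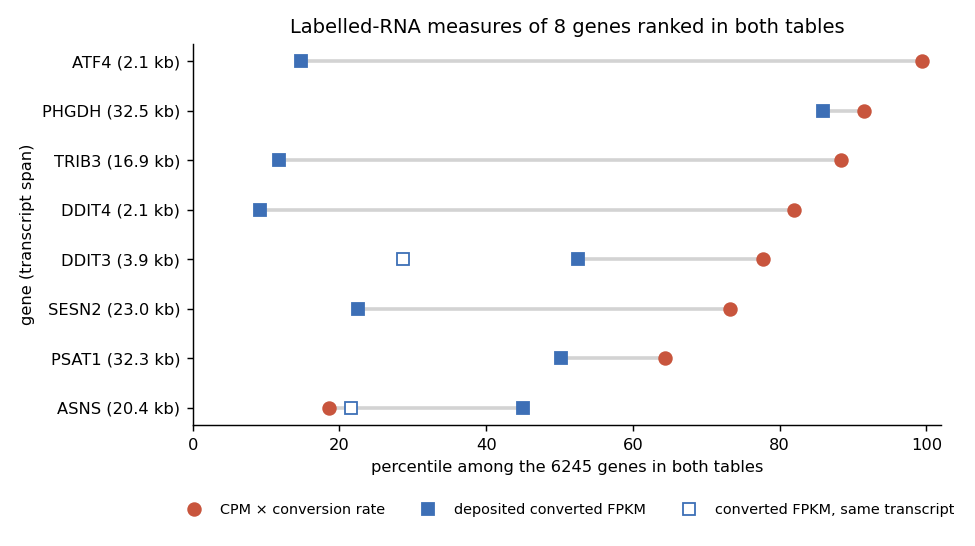
Percentile (horizontal axis) of 8 genes among the 6245 genes in both tables, with circles for CPM times conversion rate, filled squares for deposited converted FPKM of the row with the highest mean, open squares for the transcript used for all reads where it differs, and the transcript span beside each name on the vertical axis. ATF4 runs from the 99.5th percentile down to the 14.7th, while PHGDH lies at the 91.5th and 85.9th.

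Of the 5 genes that could be tested in converted reads (DDIT3, SESN2, ASNS, PSAT1 and PHGDH), none passed limma in any comparison and none had an unadjusted p under 0.05. Among all 5737 genes 0% passed in induced wild type against vehicle (455 under an unadjusted 0.05), 0.401% in induced mutant against vehicle and 0% in induced mutant against induced wild type (169 under an unadjusted 0.05). SESN2 came nearest. It was listed at 0, 0.33 and 0.69 FPKM in vehicle, at 0.23, 2.44 and 2.65 FPKM in induced wild type and at 2.38 and 1.30 FPKM in induced mutant. Both mutant libraries were above all vehicle libraries, while 1 induced wild-type library lay within the vehicle range. The log2 difference of SESN2 was 0.93 (interval -0.06 to 1.92, adjusted p 0.64) for induced wild type and 1.09 (interval -0.02 to 2.20, adjusted p 0.43) for induced mutant, both against the same vehicle libraries. It was 0.73 and 0.90 without vehicle A.

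By the row of highest FPKM, SESN2 was thus 1 of 5 genes without overlap in converted reads between induced mutant and vehicle, where 28.2% of all genes had none. PSAT1 was 1 of 5 in induced mutant against induced wild type, where 17.0% of all genes had none, with 2.66, 3.42 and 4.30 FPKM in induced wild type above 2.37 and 1.95 FPKM in induced mutant (log2 difference -0.48, interval -1.37 to 0.41). Its other row overlapped, with 2.66, 1.96 and 3.89 FPKM in induced wild type and 2.07 and 1.95 FPKM in induced mutant. In induced wild type against vehicle all 5 overlapped by the row of highest FPKM, against 12.0% of genes that did not. By the transcript used for all reads, ASNS had 0.59 and 0.64 FPKM in induced mutant. These lay below vehicle (1.05, 1.59 and 1.76 FPKM) and induced wild type (1.77, 1.46 and 0.81 FPKM). DDIT3 by that transcript had 1.57, 1.58 and 1.74 FPKM in vehicle, 1.12, 1.45 and 1.44 FPKM in induced wild type and 1.78 and 1.95 FPKM in induced mutant, without overlap. The matching share over all genes was not counted, so neither is read as a result about these genes. The patterns also depended on the row. In every ASNS row but that of highest FPKM the mutant values were the lowest. By the row of highest FPKM the ASNS groups overlapped, with 2.97 and 1.63 FPKM in induced mutant. In every other row of DDIT3 the groups overlapped. By its row of highest FPKM, DDIT3 had 2.10, 2.86 and 3.50 FPKM in vehicle, 3.32, 1.96 and 4.10 FPKM in induced wild type and 2.09 and 4.23 FPKM in induced mutant, and its 3 differences lay between -0.00 and 0.09. The intervals of DDIT3 reached from -0.91 to 1.00 at their widest limits. Without vehicle A its 2 differences from vehicle were both -0.05. Those of PHGDH went from 0.52 to 0.23 for induced wild type and from 0.27 to -0.02 for induced mutant, and those of PSAT1 from 0.26 to 0.00 and from -0.22 to -0.48.

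Other genes of the pathway were also measured. Of 60 listed genes, 53 reached 1 CPM, among them the 4 eIF2 kinases, 10 subunits of eIF2 and its exchange factor or regulators of its phosphatase, 12 aminoacyl-tRNA synthetases, 7 amino acid transporters and 10 enzymes of serine, one-carbon and related metabolism. NUPR1, BATF, SLC7A11, SLC7A3, ALDH1L2, GDF15 and FGF21 did not reach it. None of the 53 passed limma in all reads, none of 52 in conversion rate and none of 41 in converted reads, in any comparison. At an unadjusted p under 0.05 there were 0, 2 and 2 of 53 in all reads in the 3 comparisons, 1, 4 and 2 of 52 in conversion rate and 4, 2 and 1 of 41 in converted reads. Over all genes the shares under it were 0.947%, 3.75% and 2.75% in all reads, 4.48%, 7.25% and 4.97% in conversion rate and 7.93%, 11.8% and 2.95% in converted reads. On recovered reads edgeR called none of 56, with 0, 5 and 3 under an unadjusted 0.05. DESeq2 called 1, VEGFA, a secreted growth factor for blood vessels, which was lower in induced mutant than in vehicle (log2 difference -0.96, DESeq2 adjusted p 0.046) and than in induced wild type (-1.12, DESeq2 adjusted p 0.018). DESeq2 called 72 and 14 of 13387 genes in these comparisons. In limma VEGFA differed by -0.86 and -1.12 in these comparisons, with an adjusted p of 1.00 in each. Its conversion rate differed the other way, by 0.94 and 0.98 on the log2 scale (limma adjusted p 0.53 and 0.94).

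In induced wild type against vehicle, 44 of the 53 genes were above 0 and 9 below, with a median of 0.09 equal to that of all genes. Of all 12458 genes tested, 8421 were above 0 and 4037 below. XPOT, the exporter of tRNA, had 0.49 and CTH, which makes cysteine, 0.31, while LARS, the leucyl-tRNA synthetase, had -0.17 and EIF4EBP1, a repressor of cap-dependent translation, -0.23. In induced mutant against vehicle, EIF2AK2, the kinase that senses double-stranded RNA, had 0.84 and EIF2B3, a subunit of the exchange factor, 0.37, and EIF2S3, the gamma subunit of eIF2, had -0.37. In induced mutant against induced wild type, EIF2AK2 had 0.36 and EIF2B3 0.21, and CBS, which makes cystathionine, had -0.57. The median of the 53 genes was -0.04 in the second comparison, as over all genes, and -0.15 beside -0.12 in the third.

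Across libraries, the levels of the 7 regulators and effectors were correlated. All 21 pairs among them had a positive Pearson r over the 8 libraries on the log2(CPM + 1) scale, from 0.37 to 0.98 with a median of 0.70, the highest being SESN2 with DDIT4. The median over all pairs of the 12458 genes tested was 0.39. Pairs of 1 of them with 1 enzyme had a median of 0.06, from -0.67 to 0.68. Vehicle A was the lowest library for all 7, and the median of their differences from the mean of vehicle B and C was -0.67 on the log2 scale, against -0.01 for the 3 enzymes and -0.38 for all genes. Genes with a mean conversion rate of at least 8%, a limit set after seeing the data, were lowest in vehicle A in 67.9% of cases, and genes under it in 40.2%. Without vehicle A the median r among the 7 was 0.38, with 16 of 21 pairs above 0 over 7 libraries, and the median over all pairs of genes was 0.36. The points share library, depth and the overall conversion of the library, and the part of these in the correlations was not tested.

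The genes outside the list most like it across the 8 libraries were MRPL35 (r = 0.993 with the mean profile of the 8 members of at least 10 CPM), ZNF574 (0.984), MEPCE (0.981), ARF1 (0.980) and HNRNPA0 (0.978), of 6282 genes searched. Their mean conversion rates were 6.26%, 11.8%, 9.85%, 7.47% and 7.43%. The genes most like ATF4 alone were GRWD1 (r = 0.991), C12orf52 (0.969) and FEN1 (0.949), of 6289 searched. No other pathway gene was among these 8. In the mean profile, centred on the log2 scale, vehicle A stood at -0.30 and the other libraries between -0.11 and 0.13. Of all genes tested, 45.6% were lowest in vehicle A, and these r values were not computed without it.

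ATF4 with a C/EBP partner binds a composite element whose core reads TGATGNAA on one strand. This core was sought on both strands in RefSeq promoter windows of GRCh38.p14, each from 250 bases before to 50 after a start site, because the list holds ATF4 and genes known as its targets. It occurred in 3.62% of 35116 windows and in 3 of the 16 windows of the 10 members, 1 each in ASNS, ATF3 and CHAC1. The 250 bases before the start are shown for these 3, 5′ to 3′ on the strand of the gene, with the matched core in capitals. They lie at chr7:97872409-97872658 (minus strand), chr1:212565157-212565406 and chr15:40953221-40953470 (both plus strand).
ASNS: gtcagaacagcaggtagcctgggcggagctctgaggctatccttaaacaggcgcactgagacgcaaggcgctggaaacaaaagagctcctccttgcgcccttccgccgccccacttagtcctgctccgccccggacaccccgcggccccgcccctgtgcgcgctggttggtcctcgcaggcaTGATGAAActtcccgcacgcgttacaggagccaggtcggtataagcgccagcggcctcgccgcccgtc
ATF3: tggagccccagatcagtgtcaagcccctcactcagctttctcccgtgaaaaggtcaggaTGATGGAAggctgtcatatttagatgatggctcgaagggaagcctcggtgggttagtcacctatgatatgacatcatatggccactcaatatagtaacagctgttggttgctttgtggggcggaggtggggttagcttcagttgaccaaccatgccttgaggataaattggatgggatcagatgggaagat
CHAC1: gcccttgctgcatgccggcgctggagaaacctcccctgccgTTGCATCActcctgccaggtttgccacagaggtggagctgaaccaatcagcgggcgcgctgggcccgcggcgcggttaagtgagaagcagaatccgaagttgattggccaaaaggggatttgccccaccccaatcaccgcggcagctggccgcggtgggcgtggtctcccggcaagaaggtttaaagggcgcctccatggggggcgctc
In ASNS the core begins 68 bases before the start and in ATF3 191 bases before it. In CHAC1 it reads on the opposite strand, as TTGCATCA, and begins 209 bases before the start. The 3 genes with the core include the lowest conversion rate of the 10 (ASNS, 1.79%) and the highest (CHAC1, 11.2%), and none of them passed a test between groups. A window without these letters says nothing of binding elsewhere in a gene, and a match is no measured site.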

How the data were processed

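RNA of 8 NALM6 libraries was measured by SLAM-seq (TruSeq stranded mRNA kit, NextSeq 500, per the labels). The build was hg19 (GRCh37), per the submitters' processing notes. The aligner, the conversion caller and the counted region were not given in the sources used here. All-read values, named CPM per the file headers, were deposited as a signal per RefSeq transcript, and 100.0% of them were whole multiples of 1 read within 0.1 read. The conversion rate was deposited as a fraction per transcript and is given here in percent. Converted reads were deposited as FPKM per transcript.

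Symbols missing from 25396 rows of the all-read table were filled for 24843 through RefSeq names of GRCh38.p14. Each gene took its transcript row with the highest mean. The main test was limma 3.58.1 (R 4.3.3) with an intensity trend, 1 model over the 8 libraries and no covariate, on log2(CPM + 1) and log2(FPKM + 1) where the mean was at least 1, and on log2(rate in percent + 0.1), median-centred by library, where the mean was at least 20 reads. These pseudocounts understate the change of low genes. P-values were adjusted by Benjamini-Hochberg over every gene tested in a comparison, with a threshold of 0.05. Intervals are 95% intervals from the same fits. Count tests on recovered reads were alternatives (edgeR 4.0.16, quasi-likelihood; DESeq2 1.42.0), beside other pseudocounts, filters, scalings, a replicate block and leaving out each library. The fit without an intensity trend was added after seeing the data. The limma fits and edgeR were tested on simulated data with fixed noise, for induced wild type against vehicle. DESeq2, the permutation tests and the correlations were not. Exact permutation tests used scipy 1.17.1, and plots matplotlib 3.10.9.

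All 10 members are named by rule. Of the other pathway genes, any that passed are named, or else the 2 of lowest p on each side of 0 in all reads, per comparison, and the genes most like the members were the 5 of highest r with the mean profile and the 3 of highest r with ATF4. VEGFA is also named for its DESeq2 calls. The members and lists were chosen with earlier results of these data known. Depth was 7.99 to 17.7 M reads a library. Overlapping genes and antisense partners were not separated.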

Additional observations from a re-analysis of the deposited data

How the results depend on the processing

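No member was called in any comparison under 19 alternatives for all reads, 14 for conversion rate and 17 for converted reads, leaving out each library included. The smallest adjusted p over these was 0.19, for SESN2 in converted reads of induced mutant against vehicle with the replicate block (log2 difference 1.32, limma). With the replicate block the count of members called was 0 in each comparison. Same-letter libraries deviated together in some pairs and apart in others (r of 0.29, -0.36, 0.65, -0.64, -0.42, -0.36 and 0.59), so the letters were not taken to pair the samples. Of 1224 alternative values 20 moved by at least 1 SE, and the sign changed in 38 of 567 for all reads, 28 of 414 for conversion rate and 24 of 243 for converted reads. The depth limits ATF3 and CHAC1 most, with 18 to 126 reads a library.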
